A study of Mus musculus with 8 samples.

Results

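The genes described here encode proteins by which developing neurons are usually recognized: the RNA-binding proteins Elavl2, Elavl3 and Elavl4, the stathmins Stmn2 and Stmn3, the β-tubulin Tubb3, the growth cone protein Gap43, the neurofilament light chain Nefl and γ-synuclein, Sncg. The probe sets described were all those that the array's annotation assigns to one of these genes alone, which gave 19 of the 22626 probe sets tested and 9 of 12393 genes. Elavl2 had 5 probe sets, Elavl3 and Elavl4 had 3 each, Stmn2 and Stmn3 had 2 each, and the other 4 genes had 1 each. Probe sets whose name ends in _a_at match alternative transcripts of a gene, and those ending in _x_at hold some probes that may also match other transcripts.

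Whole mouse lenses taken at embryonic day 15.5 (E15.5) were profiled, and 4 dnBrg1 transgenic samples were compared with 4 wild type samples, each on 1 Affymetrix mouse expression array. The dnBrg1 mice were heterozygous for a transgene for dominant-negative Brg1 (Brg1 is an ATPase that drives chromatin remodeling by SWI/SNF complexes) and all descended from 1 founder, B3. The transgene is driven by the αA-crystallin promoter, whose activity lies in postmitotic lens fiber cells and not in all cells of a dissected lens. Wild type littermates served as controls, and both genotypes shared a mixed strain background. The sample descriptions name polysome-bound RNA for dnBrg1 replicates 1 and 2 and all wild type replicates, and total RNA alone for dnBrg1 replicates 3 and 4, although every sample's molecule field reads total RNA.

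The Elavl genes are the neuronal members of the Hu/ELAV family, whose proteins bind AU-rich elements in mRNAs and change their stability, splicing and translation. The Elavl4 protein, HuD, is known to stabilize Gap43 mRNA in growing neurons. Stathmins promote the disassembly of microtubules, Tubb3 is the β-tubulin isotype typical of young neurons, and Gap43 and Nefl serve the growth cone and the axonal cytoskeleton. Within the eye, retinal ganglion cells are known for their expression of several of these genes, and lens fiber cells are known to share part of the neuronal program.

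By own probe sets (for each gene, the one with the highest mean over the 8 samples), most of these genes were lower in dnBrg1 lenses, but not all. Elavl3 fell 3.98-fold, Nefl fell 3.52-fold and Gap43 fell 2.87-fold, whereas Tubb3 rose 2.12-fold. The array controls also differed between the genotypes in their 3′ minus 5′ difference, whose values follow further on. With it as a covariate Gap43 kept its call, while Nefl (log2 fold change -0.72, adjusted p = 0.51), Tubb3 (0.25, adjusted p = 0.80) and the own probe set of Elavl3 (-1.40, adjusted p = 0.0999) did not. Calls over all probe sets also dropped with this covariate, from 9229 to 1442. Elavl2 and Stmn3 also fell by their own probe sets, while Elavl4 gave both directions. Stmn2 and Sncg did not pass the test. Levels are log2 intensities, and each log2 fold change sets dnBrg1 over wild type. Standard errors follow the ± sign except where SD is written. Probe sets were called at a limma adjusted p under 0.05 (Benjamini-Hochberg, over all 22626). In RNA from whole lenses, fewer cells of a type and less RNA per cell cannot be told apart.

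Of the 19 probe sets, 11 were called lower, 2 were called higher and 6 were not called. The called share was 68.4%, against 40.8% of all probe sets, with 57.9% called lower against 21.0% of all and 10.5% called higher against 19.8% of all. The groups did not overlap in 13 of the probe sets, 10 with the dnBrg1 samples below and 3 with them above wild type. Over all probe sets 40.1% did not overlap, 20.6% with dnBrg1 below and 19.5% with dnBrg1 above. By own probe sets, 6 of the 9 genes were called lower and 1 higher, where 40.7% of all 12393 own probe sets were called, 23.3% lower and 17.5% higher. When all probe sets of a gene were averaged, 4 genes were called lower (Elavl2, Elavl3, Gap43 and Nefl) and 2 higher (Tubb3, and Sncg at an adjusted p of 0.0487), while Elavl4, Stmn2 and Stmn3 were not called. Over all genes so averaged 19.9% were called lower and 19.5% higher. The median log2 fold change was -0.60 over the 19 probe sets and -0.08 over all those tested. These genes were chosen with results of these arrays known, so the counts describe them and test nothing.

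**Figure D1:**
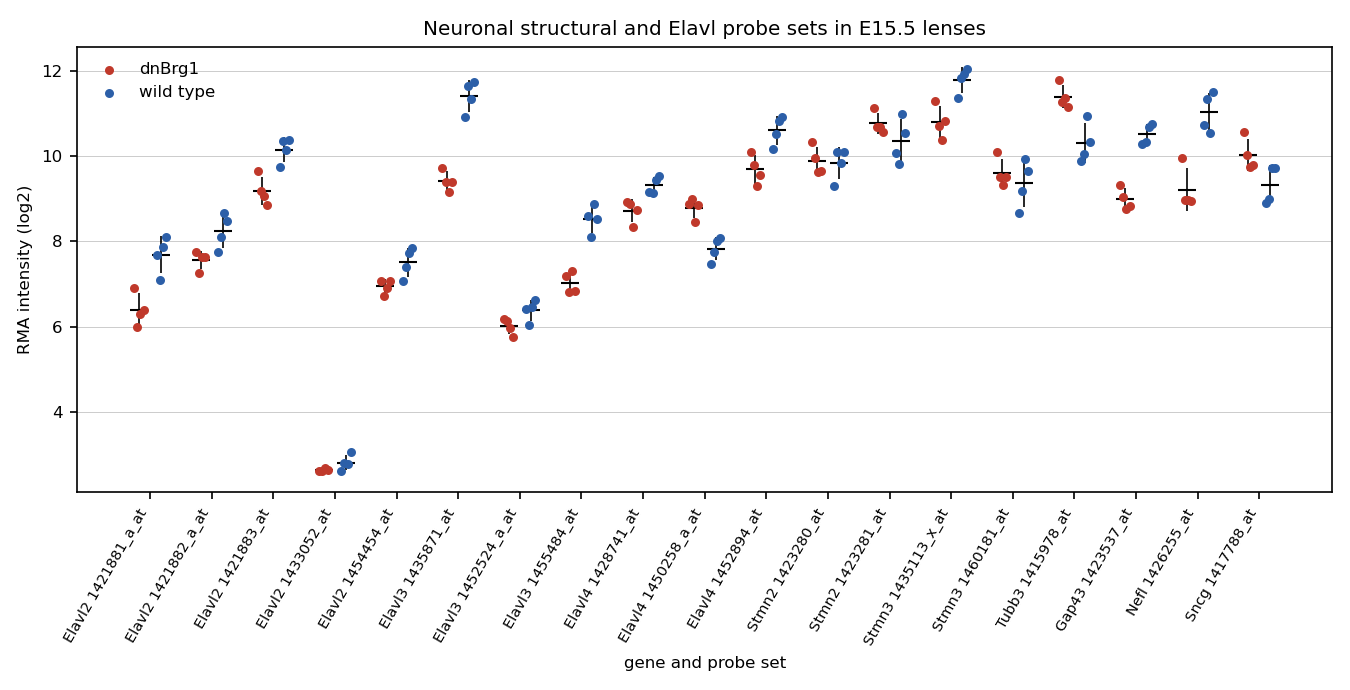
Log2 RMA intensity (vertical axis) of the 19 probe sets (horizontal axis, by gene) in 4 dnBrg1 (red) and 4 wild type (blue) lenses. Points are samples, horizontal bars are means and vertical bars are SDs. The 2 colors are apart in 13 probe sets, with dnBrg1 above wild type in Elavl4 1450258_a_at, Tubb3 and Sncg.

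The promoters of Elavl3, the gene with the largest decrease, and of Tubb3, the gene called higher by its only probe set, are shown so that the 2 directions can be set beside the sequence at each gene's start. They are from RefSeq (build GRCm38.p6), cover 250 bases before the gene start and run 5′ to 3′ on the gene's own strand. Elavl3 lies on the minus strand at chr9:22052024-22052273 and Tubb3 on the plus strand at chr8:123411303-123411552. Capitals mark the motif letters described after them.
Elavl3: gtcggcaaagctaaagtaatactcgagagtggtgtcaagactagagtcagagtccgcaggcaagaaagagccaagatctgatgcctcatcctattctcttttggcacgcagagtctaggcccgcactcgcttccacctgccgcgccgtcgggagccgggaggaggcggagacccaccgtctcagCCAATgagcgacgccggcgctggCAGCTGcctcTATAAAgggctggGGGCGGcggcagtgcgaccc
Tubb3: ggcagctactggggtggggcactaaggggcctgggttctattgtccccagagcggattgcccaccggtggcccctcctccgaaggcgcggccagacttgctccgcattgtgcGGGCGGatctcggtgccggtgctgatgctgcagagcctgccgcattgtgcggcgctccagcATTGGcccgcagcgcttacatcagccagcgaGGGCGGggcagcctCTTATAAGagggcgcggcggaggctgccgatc

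Both strands were searched for the TATA box (the letters TATAAA), its variant ending in G (TATAAG), the CCAAT box (the letters CCAAT), the GC box (the letters GGGCGG) and an E-box (the letters CAGCTG). The Elavl3 promoter held a CCAAT box at position -66, the E-box at -43, the TATA box at -33 and a GC box at -20, counted back from the gene start. The Tubb3 promoter held a GC box at -138 and at -46, a CCAAT box on the minus strand at -77 (which reads ATTGG on the strand shown) and the TATA variant at -30, which overlaps a copy on the minus strand at -32. Among 32851 promoters of the same length, 12.4% held the TATA box, 6.65% its variant, 33.8% a CCAAT box, 32.7% a GC box and 13.0% the E-box. RefSeq promoters were matched for 6 of the 9 genes: 6 starts of Elavl2, 4 of Elavl4 and 1 each of Elavl3, Stmn3, Tubb3 and Sncg. Of these 14 promoters, 10 held a CCAAT box (in Elavl2, Elavl3, Elavl4 and Tubb3), 8 a GC box (in Elavl2, Elavl3, Sncg and Tubb3), 3 the E-box (in Elavl3 and Elavl4), and 1 each the TATA box (Elavl3) and its variant (Tubb3). Most of the 14 are starts of Elavl2 or Elavl4, and starts of the same gene are not independent, so these counts are descriptions. A match is a description of the letters and not of a working site. Gap43, Nefl and Stmn2 had no match.

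Among the RNA-binding proteins, Elavl3 (HuC) had the largest decrease. Its own probe set 1435871_at read 9.73, 9.38, 9.15 and 9.38 in dnBrg1 replicates 1 to 4, and 10.91, 11.65, 11.33 and 11.73 in wild type replicates 1 to 4. The groups were 1.18 apart at their closest, between dnBrg1 replicate 1 and wild type replicate 1. The log2 fold change was -1.99 ± 0.20 (adjusted p = 7.2e-05). A second probe set, 1455484_at, read 7.18, 6.81, 7.31 and 6.84 in dnBrg1 lenses and 8.60, 8.10, 8.88 and 8.52 in wild type lenses. It also showed no overlap, with a log2 fold change of -1.49 ± 0.18 (adjusted p = 0.00023). The third, 1452524_a_at, was not called: it averaged 6.02 ± 0.19 in dnBrg1 and 6.39 ± 0.25 in wild type lenses (SD, n = 4 each), with a log2 fold change of -0.37 ± 0.15 (adjusted p = 0.073). Without wild type replicate 2, its lowest wild type sample, it was called lower (-0.49, adjusted p = 0.019). Leaving out any other single sample gave no call (adjusted p between 0.0763 and 0.185).

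Elavl2 (HuB) was lower by 4 of its 5 probe sets. The own probe set 1421883_at read 9.64, 9.19, 9.07 and 8.85 in dnBrg1 lenses and 9.73, 10.36, 10.14 and 10.36 in wild type lenses. Only 0.097 separated the highest dnBrg1 sample, replicate 1, from the lowest wild type sample, replicate 1, and the log2 fold change was -0.96 ± 0.20 (adjusted p = 0.0038). The largest decrease, -1.28 ± 0.25 (adjusted p = 0.0027), was that of the dim probe set 1421881_a_at, which read 6.92, 5.998, 6.30 and 6.40 in dnBrg1 lenses and 7.68, 7.09, 7.87 and 8.11 in wild type lenses. The other 2 calls were small: -0.68 ± 0.20 (adjusted p = 0.023) for 1421882_a_at, with the groups 0.013 apart, and -0.56 ± 0.17 (adjusted p = 0.029) for 1454454_at, with groups that overlapped. The first of these was not called without dnBrg1 replicate 2 (-0.58, adjusted p = 0.065) or wild type replicate 4 (-0.60, adjusted p = 0.063). The second lost its call without dnBrg1 replicate 2 or 3, or without wild type replicate 3 or 4 (-0.55 to -0.45, adjusted p between 0.061 and 0.079). The fifth probe set, 1433052_at, lay near the bottom of the array at 2.65 ± 0.04 in dnBrg1 and 2.82 ± 0.18 in wild type lenses (SD, n = 4 each) and was not called (adjusted p = 0.24).

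Elavl4 (HuD) was the only gene with calls in both directions. Its own probe set 1452894_at read 10.09, 9.80, 9.29 and 9.56 in dnBrg1 lenses and 10.16, 10.51, 10.82 and 10.92 in wild type lenses, a log2 fold change of -0.92 ± 0.21 (adjusted p = 0.0068). The probe set 1428741_at, designed on the same cDNA clone (AK013588), fell as well. It averaged 8.72 ± 0.27 in dnBrg1 and 9.31 ± 0.21 in wild type lenses (SD, n = 4 each), with a log2 fold change of -0.60 ± 0.16 (adjusted p = 0.014). The probe set 1450258_a_at, designed on the RefSeq transcript NM_010488, rose instead: it read 8.87, 8.99, 8.45 and 8.84 in dnBrg1 lenses and 7.48, 7.74, 8.01 and 8.09 in wild type lenses. The 4 dnBrg1 values were all above the 4 wild type values, with a log2 fold change of 0.96 ± 0.17 (adjusted p = 0.0016). The mean of the 3 probe sets gave -0.19 ± 0.17 (adjusted p = 0.41).

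The same Elavl4 values, taken as differences within each sample, restate this split and add no independent support. The own probe set exceeded 1450258_a_at by 0.90 ± 0.22 in dnBrg1 and by 2.77 ± 0.07 in wild type lenses (SD, n = 4 each), a difference of -1.87. The other falling probe set stood at -0.07 ± 0.08 against 1450258_a_at in dnBrg1 and at 1.48 ± 0.13 in wild type lenses (SD, n = 4 each). In both pairs the groups were fully separate. The comparison was added after the opposite calls were seen, and none of the 18 pairs of probe sets within Elavl2, Elavl3, Elavl4, Stmn2 and Stmn3 passed after adjustment (two-sided exact permutation test, smallest p = 0.0286 with 70 assignments, adjusted p = 0.0735). With 4 samples per group this test cannot give a p below 0.0286. A single fully separate pair could therefore not pass over 18 pairs, and the test cannot decide on the split. The part of the transcript that each probe set covers was not worked out here.

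The stathmins behaved differently from each other. Stmn3 (SCLIP), by its own probe set 1435113_x_at, read 11.29, 10.71, 10.38 and 10.82 in dnBrg1 lenses and 11.35, 11.83, 11.91 and 12.03 in wild type lenses. The groups lay only 0.061 apart, between replicate 1 of each genotype, and the log2 fold change was -0.98 ± 0.21 (adjusted p = 0.0048). Its other probe set, 1460181_at, read 10.09, 9.50, 9.31 and 9.50 in dnBrg1 lenses and 8.66, 9.18, 9.93 and 9.66 in wild type lenses. These values overlapped and the probe set was not called (log2 fold change 0.24 ± 0.27, adjusted p = 0.51). Within samples the own probe set exceeded the other by 1.20 ± 0.10 in dnBrg1 and by 2.42 ± 0.33 in wild type lenses (SD, n = 4 each, two-sided exact permutation p = 0.0286, adjusted p = 0.0735 over the 18 pairs). The mean of both Stmn3 probe sets was not called (-0.37 ± 0.23, adjusted p = 0.23).

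Stmn2 (SCG10), a stathmin of growth cones, was not called by either probe set. Its own probe set 1423281_at read 11.13, 10.69, 10.68 and 10.55 in dnBrg1 lenses and 10.08, 9.81, 10.97 and 10.53 in wild type lenses, a log2 fold change of 0.42 ± 0.24 (adjusted p = 0.20). Wild type replicate 3 stood highest of its group, and without it the probe set was called higher (0.62, adjusted p = 0.032). Leaving out any other single sample gave no call. The smallest value was 0.24, without wild type replicate 2 (adjusted p = 0.429). The probe set 1423280_at averaged 9.89 ± 0.33 in dnBrg1 and 9.83 ± 0.38 in wild type lenses (SD, n = 4 each), with a log2 fold change of 0.06 ± 0.22 (adjusted p = 0.85). Profiles like that of Stmn3's own probe set, the member taken for this by its mean, were searched among 10426 bright probe sets, those with a mean at or above the median of all. Camk2d, Sh3kbp1 and Cdk5r1 had the nearest profiles over the 8 samples, with mean absolute differences of 0.066, 0.099 and 0.11 between the centered log2 values.

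Of the cytoskeletal and growth cone genes, Tubb3 moved against Gap43 and Nefl. Tubb3 read 11.78, 11.28, 11.35 and 11.15 in dnBrg1 lenses and 9.89, 10.05, 10.94 and 10.34 in wild type lenses. No values overlapped, wild type replicate 3 came within 0.20 of the lowest dnBrg1 sample, and the log2 fold change was 1.08 ± 0.23 (adjusted p = 0.0048). Gap43, a membrane protein of the growth cone, read 9.32, 9.04, 8.76 and 8.83 in dnBrg1 lenses and 10.28, 10.33, 10.68 and 10.74 in wild type lenses. The groups were 0.96 apart, with a log2 fold change of -1.52 ± 0.16 (adjusted p = 0.00011). Nefl, which encodes the light subunit of neurofilaments, read 9.96, 8.96, 8.98 and 8.94 in dnBrg1 lenses and 10.73, 11.33, 10.55 and 11.50 in wild type lenses. The log2 fold change was -1.82 ± 0.28 (adjusted p = 0.00086), and dnBrg1 replicate 1 lay about 1 log2 unit above the other dnBrg1 samples but still below every wild type sample.

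Sncg, a small protein of axon terminals in peripheral and retinal ganglion neurons, read 10.56, 10.02, 9.74 and 9.79 in dnBrg1 lenses and 8.89, 8.99, 9.73 and 9.72 in wild type lenses. The groups did not overlap but were only 0.008 apart, and the log2 fold change of 0.70 ± 0.25 just missed the threshold (adjusted p = 0.0505). It was called higher without wild type replicate 3 (0.83, adjusted p = 0.029) or wild type replicate 4 (0.83, adjusted p = 0.039). It was not called when any other single sample was left out. The smallest value was 0.52, without dnBrg1 replicate 1 (adjusted p = 0.123).

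The samples had a common order across these genes. dnBrg1 replicate 1 was the highest dnBrg1 sample in 16 of the 19 probe sets, where it was so in 22.0% of all probe sets tested. Wild type replicate 1 was the lowest wild type sample in 13 (22.2% of all) and wild type replicate 4 the highest in 13 (26.0% of all). In the other 6 probe sets wild type replicate 3 was highest: Tubb3, Sncg, Stmn2 1423281_at, Stmn3 1460181_at, Elavl2 1421882_a_at and Elavl3 1455484_at. These shares are descriptions, since the probe sets share their samples. When dnBrg1 replicate 1 and wild type replicate 3 were both left out, 11 of the 13 called probe sets kept their call and the same direction.

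The array's own controls moved with genotype. These controls measure the 3′ and 5′ ends of the β-actin and Gapdh mRNAs, and a larger 3′ minus 5′ difference means less labeled product toward the 5′ end. For β-actin the difference was 0.58 ± 0.06 in dnBrg1 and 2.498 ± 0.475 in wild type lenses, and for Gapdh it was 0.67 ± 0.02 in dnBrg1 and 1.59 ± 0.58 in wild type lenses (SD, n = 4 each, two-sided exact permutation p = 0.0286 and adjusted p = 0.0286 for both). The mean of both was between 0.59 and 0.65 in the dnBrg1 samples, against 1.43 in wild type replicate 3 and up to 2.66 in wild type replicate 2. With this mean as a covariate, 2 of the 19 probe sets were called, Elavl3 1455484_at (-2.36 ± 0.32, adjusted p = 0.013) and Gap43 (-1.74 ± 0.40, adjusted p = 0.043). Over all probe sets 1442 were called with the covariate and 9229 without it, so the loss of calls was not particular to these genes. The median standard error over all probe sets was 0.29 with the covariate and 0.15 without it.

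For the other members the covariate left directions or sizes that differed by gene. Tubb3 stood at 0.25 ± 0.50 (adjusted p = 0.80), Sncg at 0.16 ± 0.61 (adjusted p = 0.91) and Nefl at -0.72 ± 0.60 (adjusted p = 0.51). Elavl3 1435871_at kept -1.40 ± 0.44 (adjusted p = 0.0999), and the Elavl4 probe sets stayed on opposite sides, at -0.999 ± 0.54 for 1452894_at and 0.85 ± 0.42 for 1450258_a_at (adjusted p = 0.30 and 0.26). Stmn2 1423281_at stood at -0.70 ± 0.46 (adjusted p = 0.39) and Stmn3 1460181_at at -0.28 ± 0.68 (adjusted p = 0.85), both below 0 where they were above 0 without the covariate. The covariate and the genotype run largely together in these 8 samples and cannot be told apart.

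**Figure D2:**
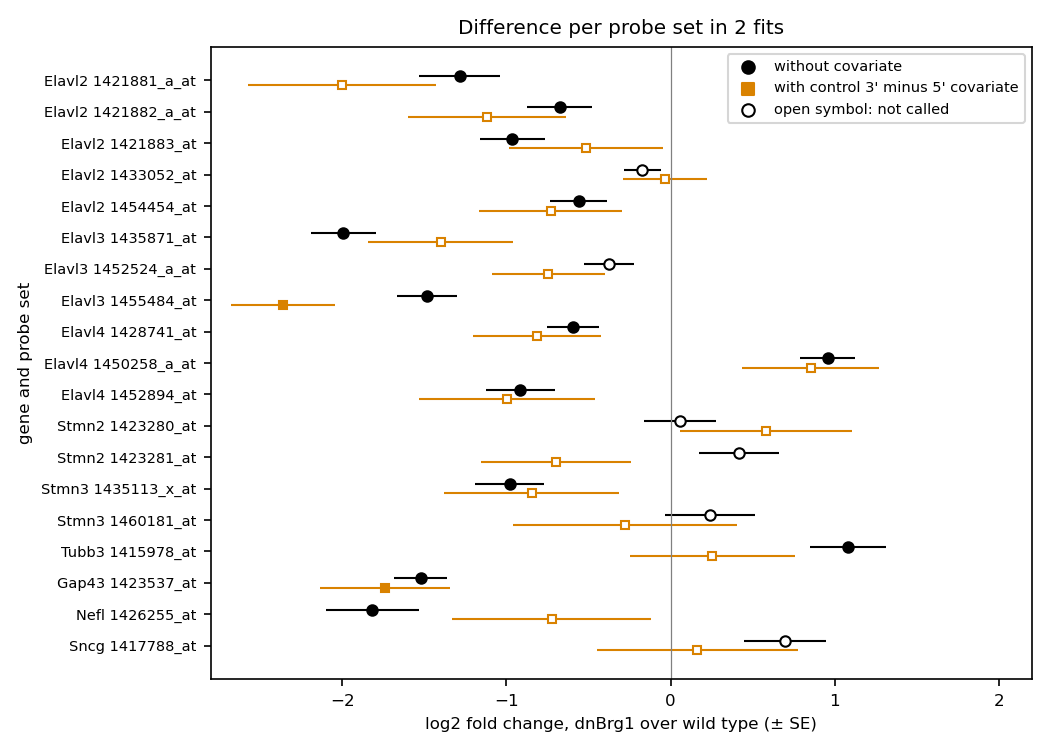
Log2 fold change, dnBrg1 over wild type (horizontal axis), with its standard error for each of the 19 probe sets (vertical axis), without a covariate (black circles) and with the control 3′ minus 5′ difference as a covariate (orange squares). Filled symbols passed the adjusted threshold: 13 black and 2 orange, those of Elavl3 1455484_at and Gap43.

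**Figure D3:**
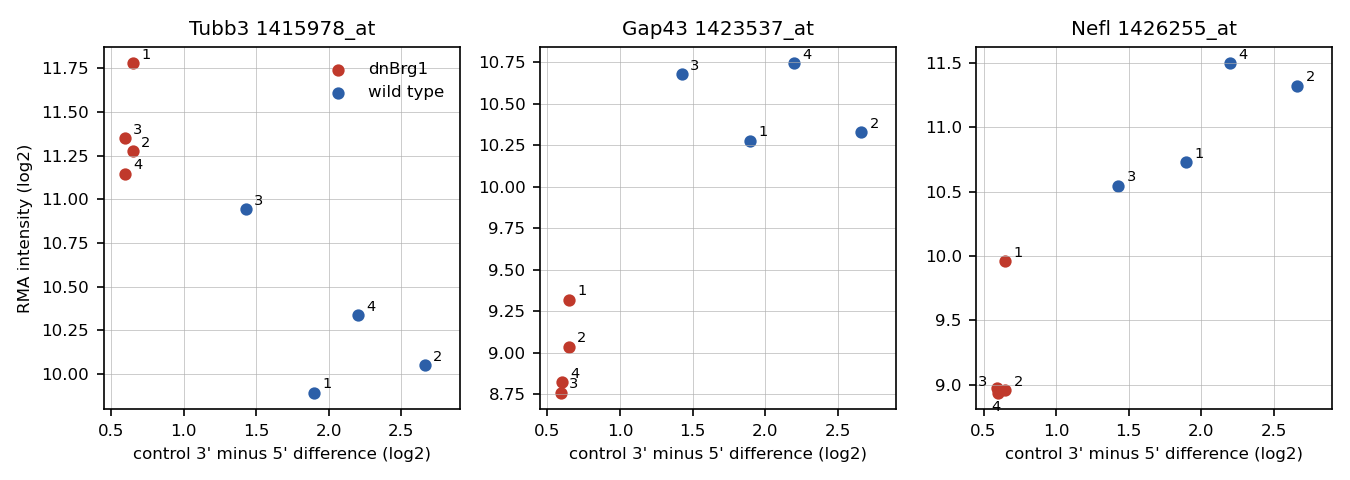
Log2 RMA intensity of Tubb3, Gap43 and Nefl (vertical axes) against the mean 3′ minus 5′ difference of the β-actin and Gapdh controls (horizontal axes) in 4 dnBrg1 (red) and 4 wild type (blue) samples, numbered by replicate. The dnBrg1 samples sit together at 0.59 to 0.65, wild type replicate 3 is nearest to them at 1.43, and its Tubb3 value of 10.94 is the highest of the wild type samples. Wild type replicate 1 is next at 1.90, and its Tubb3 value of 9.89 is the lowest.

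With dnBrg1 replicates 1 and 2 alone, whose descriptions match those of wild type, 7 of the 19 probe sets were called, 5 lower and 2 higher. Among the members the lower ones were Elavl2 1421881_a_at (-1.23), Elavl3 1435871_at (-1.85) and 1455484_at (-1.53), Gap43 (-1.33) and Nefl (-1.57). The higher ones were Elavl4 1450258_a_at (1.10) and Tubb3 (1.22). The 6 member probe sets that lost their call kept their direction, with adjusted p between 0.0541 and 0.113.

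A further list of 83 genes, of which 74 were measured, held other neuronal genes and the complex of Rest, a repressor of neuronal genes outside neurons. The neuronal genes without that complex numbered 66, of which 26 were called lower (39.4%, against 23.3% of all own probe sets), 8 higher (12.1%, against 17.5%) and 32 were not called. Their median log2 fold change was -0.33, against -0.11 over all own probe sets. Over the whole list 27 were called lower (36.5%) and 13 higher (17.6%, near the 17.5% of all), with a median of -0.24. Calls on this list and on the markers below are from the fit without the control 3′ minus 5′ covariate. With that covariate 1442 of all probe sets were called, against 9229 without it, and the listed genes were not read in that fit. The largest decreases on the list were those of Stx1a, a syntaxin of the presynaptic membrane (-2.45 ± 0.19, adjusted p = 2.9e-05), Cplx2, a complexin (-2.16 ± 0.13, adjusted p = 1e-05), Celf4, an RNA-binding protein (-1.83 ± 0.27, adjusted p = 0.00065), and the adhesion molecule L1cam (-1.72 ± 0.28, adjusted p = 0.0011). The largest increases on it were those of the kinesins Kif5c (1.73 ± 0.26, adjusted p = 0.00067) and Kif1a (1.63 ± 0.19, adjusted p = 0.00018) and of Kdm1a (1.24 ± 0.13, adjusted p = 0.0001) and Hdac2 (1.23 ± 0.26, adjusted p = 0.0044), a histone demethylase and a deacetylase of the Rest complex.

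Set beside the members' own families, the paralogs did not follow one direction. Elavl1 (HuR), the widely expressed member of the Elavl family, was not called (0.33 ± 0.12, adjusted p = 0.053). Of the 9 RNA-binding proteins measured, 5 were called lower and none higher, where 23.3% of all own probe sets were called lower and 17.5% higher. Rbfox3, 1 of the 5, lay near the bottom of the array, and its groups overlapped (-0.52 ± 0.17, adjusted p = 0.033). The stathmins Stmn1 (-0.20 ± 0.09, adjusted p = 0.099) and Stmn4 (-0.46 ± 0.20, adjusted p = 0.10) were not called. Of 8 other tubulins, Tubb4b (1.003 ± 0.13, adjusted p = 0.00031) and Tubb2a (0.64 ± 0.19, adjusted p = 0.024) rose, Tubb4a fell (-1.25 ± 0.11, adjusted p = 4.6e-05) and 5 were not called. The other neurofilament genes Nefm (-0.63 ± 0.25, adjusted p = 0.068) and Nefh (-0.41 ± 0.19, adjusted p = 0.11) were not called, and the β-synuclein gene Sncb, near the bottom of the array, fell (-0.63 ± 0.22, adjusted p = 0.044).

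Against 23.3% of all own probe sets called lower and 17.5% called higher, 8 of 11 synaptic genes were called lower and 1 higher (Syn2), 5 of 8 microtubule-associated proteins lower and 2 higher, and 3 of 10 growth cone proteins lower, near the share of all, and none higher. Of 8 measured genes of the Rest complex 5 were called higher and 1 lower. With so few genes in each role these counts are descriptions. Rest itself rose slightly (0.30 ± 0.11, adjusted p = 0.047), and Hdac1 fell (-0.77 ± 0.17, adjusted p = 0.0056).

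**Figure D4:**
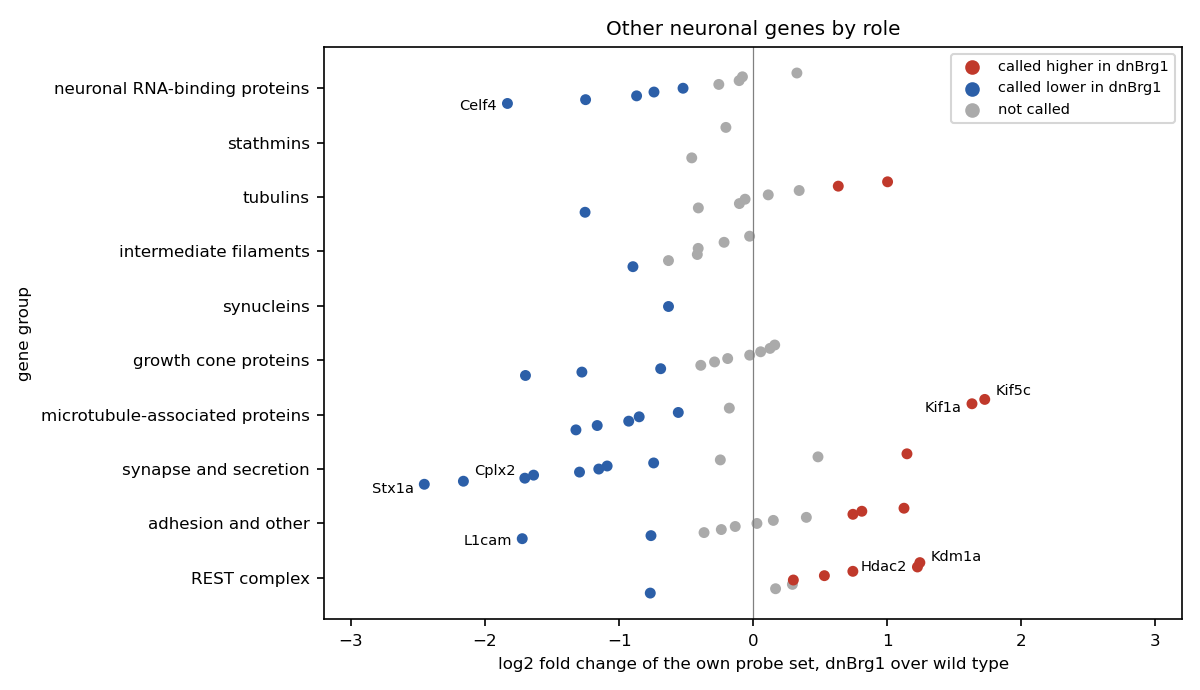
Log2 fold change of the own probe set, dnBrg1 over wild type (horizontal axis), in 10 groups by role (vertical axis). The 74 genes are 66 other neuronal genes and 8 of the Rest complex. Red genes were called higher in dnBrg1 lenses (13), blue genes were called lower (27) and grey genes were not called (34), and the 4 with the largest increases and the 4 with the largest decreases are named.

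Markers of the lens and of tissues that could come along in a dissection were read from the same arrays. Lens markers were bright: Cryaa, the αA-crystallin gene, stood at 14.31 ± 0.02 in dnBrg1 and 14.27 ± 0.07 in wild type lenses (SD, n = 4 each), and of 11 lens markers measured, read as all marker counts here against the 23.3% of all own probe sets called lower and the 17.5% called higher, 2 were called higher (Bfsp1, 1.54, and Gja3, 1.53) and 1 lower (Pitx3, -1.24). Retinal markers were at or above the median of all probe sets in 3 of 7 for ganglion cells, 7 of 7 for progenitors and 7 of 12 for other retinal neurons. Of 7 retinal ganglion cell markers 4 were called lower (Thy1, -1.56, Slc17a6, -1.19, Atoh7, -1.08, and Isl1, -0.63) and none higher. The summed linear intensity of the 7 was between 5429 and 7454 in dnBrg1 and between 8670 and 11878 in wild type samples. Thy1 (3.70 in dnBrg1 and 5.26 in wild type lenses) and Slc17a6 (6.98 and 8.18) had means below the median of all probe sets. The bright Atoh7, Isl1 and Ebf3 (-0.58, not called) weigh most in the ganglion cell sums. Of 7 retinal progenitor markers 3 were called lower (Hes5, -2.10, Rax, -1.05, and Lhx2, -0.51) and none higher, with sums of 23097 to 26441 in dnBrg1 and 28889 to 32843 in wild type samples. The 4 not called were Six6 (-0.0028, adjusted p = 0.99) and the bright Ccnd1 (-0.16), Sfrp2 (-0.29) and Fgf15 (-0.28). These 3 bright genes weigh most in the progenitor sums. Of 12 markers of other retinal neurons 5 were called lower (Lhx1, -1.20, Ptf1a, -1.19, and Neurod4, -1.07, by the most) and 2 higher (Dlx1, 1.24, and Onecut1, 0.82). The sums of the 12 were 3934 to 5676 in dnBrg1 and 4851 to 8174 in wild type samples. Lhx1 (3.95 in dnBrg1 and 5.16 in wild type lenses) and Onecut1 (5.95 and 5.13) also had means below the median. Of the ganglion cell markers, the bright factor Atoh7 averaged 11.11 ± 0.21 in dnBrg1 and 12.19 ± 0.05 in wild type lenses. Isl1, also bright, averaged 11.10 ± 0.27 in dnBrg1 and 11.73 ± 0.31 in wild type lenses (SD, n = 4 each, for both genes). The part of retinal RNA in the levels of the Elavl genes, Gap43, Nefl and Tubb3 was not tested.

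Of 5 peripheral nerve markers measured none was bright and 4 had a mean below 4.94, the lower quartile of all probe sets, with 2 called lower and summed intensities of 101 to 130 in dnBrg1 and 118 to 168 in wild type samples. Schwann cell and neural crest markers (3 measured, sums of 106 to 249 in dnBrg1 and 102 to 167 in wild type samples) gave no call. Mesenchyme markers varied within both genotypes, with sums of 757 to 9578 in dnBrg1 and 1559 to 4559 in wild type samples and no call among 5. Of the other marker lists, 1 of 4 pigment cell markers was called lower, 5 endothelial markers gave 1 higher and 2 lower, 5 macrophage markers gave 3 higher and 2 lower, and 2 erythroid markers gave no call. Over all own probe sets 40.7% were called, so counts such as 7 of 12 or 3 of 5 say little about a list.

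**Figure D5:**
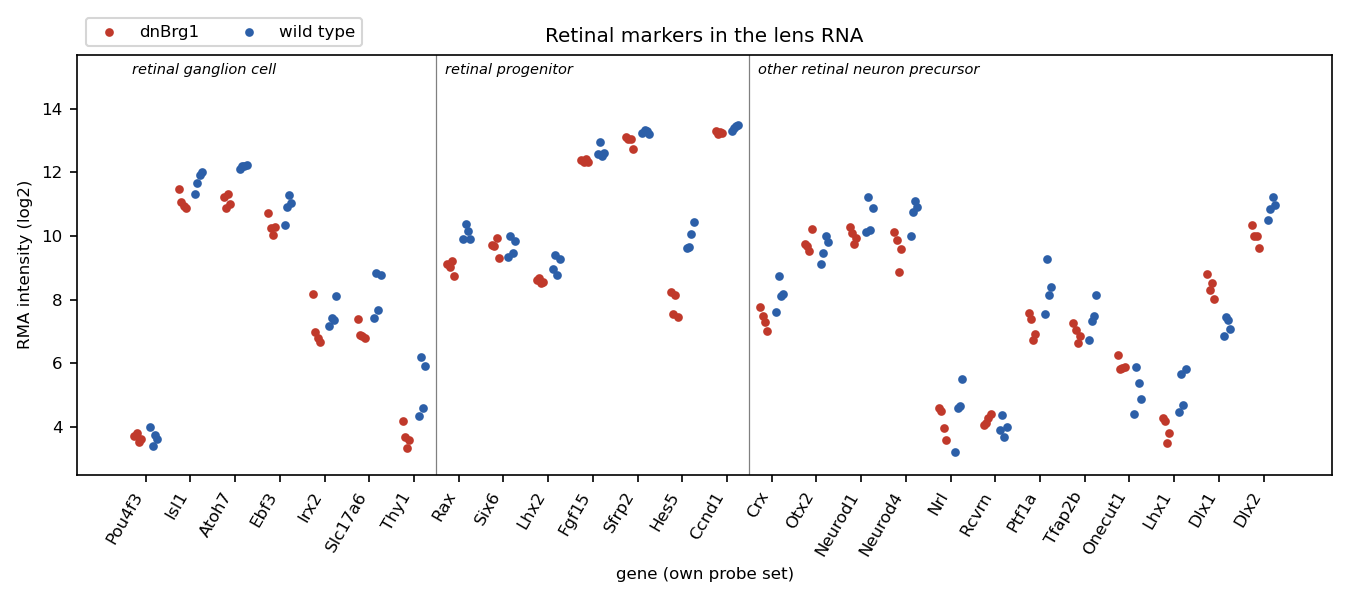
Log2 RMA intensity (vertical axis) of 26 retinal markers (horizontal axis, by own probe set) in 4 dnBrg1 (red) and 4 wild type (blue) lenses, in 3 panels for retinal ganglion cells, retinal progenitors and other retinal neurons. Atoh7, Rax and Hes5 are lower in every dnBrg1 sample, and Dlx1 is higher in every dnBrg1 sample.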

How the data were processed

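Total RNA (50 ng per sample) was amplified and biotin-labeled with the NuGEN system and hybridized to Affymetrix mouse expression arrays. The authors processed the scans by RMA, version not given in the sources used here. The deposited values are linear RMA intensities, and log2 was taken of them. RMA corrects background, makes the arrays' distributions alike and summarizes probes, so a shift common to most transcripts is lost. The lowest intensity was 3.64 and the highest 25532.1, with array medians between 196.9 and 209.1. Signal over background per probe set was not given, and precision is limited by the use of 8 arrays.

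After 64 control probe sets were set aside, 22626 of 22690 remained, of which 20380 name 1 gene, 691 several and 1555 none by the platform annotation. Genotypes came from the labels, and the samples are described as biological replicates, so p-values measure the spread between them. limma 3.58.1 (lmFit, eBayes, R 4.3.3) was fitted to all probe sets without covariates and tested on simulated data, with Benjamini-Hochberg adjustment. In the simulation 200 of 22626 probe sets were changed, far fewer than were called in the data. Of these, 16% were recovered at 1.5-fold and 55% at 2-fold, and 7 of 78 calls were false. With so few changed, the adjusted cut was stricter in the simulation than in the data, so the recovered shares may be too low for the real fit. A probe set that was not called may still have changed. Control and probe pair differences used two-sided exact permutation tests. Named genes were all 9 members with every probe set, up to 4 higher and 4 lower genes of the further neuronal list, up to 3 called genes per marker list, and the 3 nearest profiles to the brightest member. Paralogs (Elavl1, Stmn1, Stmn4, Tubb4b, Tubb2a, Tubb4a, Nefm, Nefh, Sncb) and Rbfox3, Syn2, Rest, Hdac1, Cryaa, Isl1, Ebf3, Neurod4, Onecut1, Six6, Ccnd1, Sfrp2 and Fgf15 were named after their values were seen. Members and lists were chosen with earlier results of these data known. Alternatives covered scaling, an added constant, a dim filter, variance model, weights, covariate, block, described RNA, the methods' t-test, threshold and left-out samples; the probe pair test, averaged probe sets of the member genes and 1 fit without a sample of each genotype were added after the data were seen. RefSeq promoters cover 250 bases.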

Additional observations from a re-analysis of the deposited data

Results flagged for a closer look

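In Nefl, the neurofilament light chain gene, dnBrg1 replicate 1 stood far from the other dnBrg1 samples, at a log2 intensity of 9.96 against 8.94 to 8.98. The gap to its nearest neighbor made up 0.962 of the group's range, above Dixon's critical value for 4 samples, which chance exceeds in about 1 in 20 groups. It was the only such case among 42 groups examined (dnBrg1 and wild type groups of the member probe sets and controls). Without dnBrg1 replicate 1 the decrease of Nefl kept its call.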

How the results depend on the processing

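Over 21 alternatives, the 13 called probe sets gave 271 values, of which 240 kept their call, 31 lost it and none changed sign. The dim filter gave no value for 2 of them. With the control 3′ minus 5′ difference as a covariate, 1442 of all probe sets were called (808 higher, 634 lower), and 2 of the 19 members (0 higher, 2 lower). With dnBrg1 replicates 1 and 2 only, 5640 were called (2600 lower), and 7 members (5 lower). At an adjusted p under 0.01, 6031 were called (2820 lower). Leaving out each sample in turn gave 7700 to 10172 calls over all probe sets, 3924 to 4978 higher and 3776 to 5194 lower, against 9229, 4484 and 4745 with all 8 samples. Among the members it gave 11 to 14, with 2 to 4 higher and 9 to 12 lower, and 4 were higher without wild type replicate 3. It gave a control difference, dnBrg1 minus wild type, of -1.13 to -0.67 for Gapdh and -2.13 to -1.76 for β-actin. The Gapdh difference missed the threshold in 4 of these fits, those without a dnBrg1 sample (exact permutation test, p = 0.0571). In them it stood between -0.94 and -0.92, close to its -0.93 with all samples. With so few samples the p-values of this test move in coarse steps. Values of probe sets that were not called turned sign as follows. Stmn2 1423280_at, at 0.06 with all samples, was -0.0072 after quantile normalization, -0.12 without wild type replicate 1, -0.093 without dnBrg1 replicate 1 (range over single left-out samples -0.12 to 0.15) and -0.088 without dnBrg1 replicate 1 and wild type replicate 3 together. With the covariate Stmn2 1423281_at was -0.70 and Stmn3 1460181_at -0.28. The cause was not tested.

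The replicate numbers did not pair the samples: deviations of same-numbered samples correlated at -0.187, -0.0135, -0.0538 and 0.157, and 1 of 8 samples correlated best with its own number. With the replicate number as a block, 7963 probe sets were called, and the members' 13 calls were kept. When each gene's probe sets were averaged, 43 genes of the further list, Rest complex included, were called, against 40 by own probe sets. Of the 9 member genes 6 were called (4 lower, 2 higher), against 7 (6 lower, 1 higher).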
